A study of Mus musculus with 16 samples.

Results

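The Notch receptors *Notch1*, *Notch2* and *Notch4*, the Jagged ligands *Jag1* and *Jag2*, and the nuclear factors *Rbpj*, *Maml1*, *Maml2*, *Maml3* and *Spen* were measured in LPS/IC-activated macrophages with or without a γ-secretase inhibitor (GSI). The 10 genes were chosen by name as the core of the pathway that the inhibitor blocks, out of 47069 genes in the table of read counts, and each matched exactly 1 row. All 10 passed the filter on low counts, which kept 13211 genes for testing. The list was chosen with earlier results of these data known. *Notch3* and the Delta-like ligands, which are outside the list, did not pass the filter.

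The cells were bone marrow-derived macrophages (BMMs) grown for 7 days from C57BL/6 mice of 8 to 10 weeks, in medium conditioned by L929 cells. Every culture was primed overnight with IFNγ (10 ng/mL), washed, and activated for 1 hr with *Salmonella* LPS (100 ng/mL) and IgG-opsonized ovalbumin, an immune complex (IC). The DMSO group received the vehicle at 0.01% and the GSI group received DAPT at 25 μM, which the methods say was given overnight before activation. Legends of some other experiments in the study give a shorter pre-treatment. Whether the GSI cultures also held DMSO is not stated in the labels. Each group had 2 replicates, and the 4 columns of a replicate were summed to 1 library. What the 4 columns are is not given in the labels, and they were read as runs because they differed little beyond counting noise. The labels do not say whether the replicates came from separate mice or cultures, so the tests measure only the spread between these libraries.

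Notch receptors are cut on the cell surface when a Delta-like or Jagged ligand on a neighbouring cell pulls on them, and then inside the membrane by γ-secretase. The freed intracellular domain enters the nucleus, where it joins the DNA-binding protein RBPJ and a Mastermind-like (MAML) co-activator and switches target genes on. Without the intracellular domain, RBPJ can hold the same genes silent through co-repressors. SPEN, also called SHARP or MINT, is such a co-repressor of RBPJ and not a co-activator, which sets it apart from the MAML proteins. In macrophages the pathway is known for its interplay with Toll-like receptor and NF-κB signaling.

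The step that DAPT blocks can be shown on the coding sequence of *Notch1*, because cleavage leaves a fragment that starts at valine 1744. The stretch below is taken from transcript *Notch1*-201, lies in exon 28 of 34 on the minus strand at chr2:26465445-26465504 of GRCm38, and has the codon of that valine in capitals.
*Notch1* cleavage site: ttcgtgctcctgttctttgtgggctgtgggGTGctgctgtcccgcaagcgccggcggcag
The inhibitor acts on the enzyme that cuts the protein here, whereas the counts describe the mRNA. γ-Secretase also cuts many other membrane proteins, so DAPT is not specific to Notch.

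The libraries held 42694655 to 56932059 counts, so that 3 counts, the limit allowed by a count of 0, corresponded to 0.0527 to 0.0703 CPM (read counts scaled to a common library size). These limits cover counting error only. Normalization factors were close to 1, from 0.997 to 1.008, and the median log2 fold change of all genes tested was 0.01. The 9 macrophage markers, among them *Adgre1*, *Csf1r* and *Lyz2*, were all expressed, with a summed level of 10876 and 11180 CPM with DMSO, against 8848 and 9611 CPM with GSI. Of these 9 genes, 6 were lower, 1 was higher (*Mertk*) and 2 did not pass the test (*Cd68* and *Spi1*).

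Of the 10 genes, 9 were lower with GSI at an FDR under 0.05 (quasi-likelihood test of edgeR, adjusted over all genes tested by the Benjamini-Hochberg method), 0 were higher, and *Rbpj* did not pass the test. Among all genes tested, 21.9% were called lower and 19.0% higher. In the same 9 genes the 2 groups did not overlap and the GSI libraries were the lower. That was so for 34.8% of all genes, and 35.8% had both GSI libraries above. The median log2 fold change of the 10 genes was -0.52. Only *Notch4* and *Jag2* also fell beyond a log2 fold change of -1.5, as 2.17% of all genes did. In bulk RNA, fewer cells that express a gene and less mRNA per cell cannot be told apart.

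**Figure D1:**
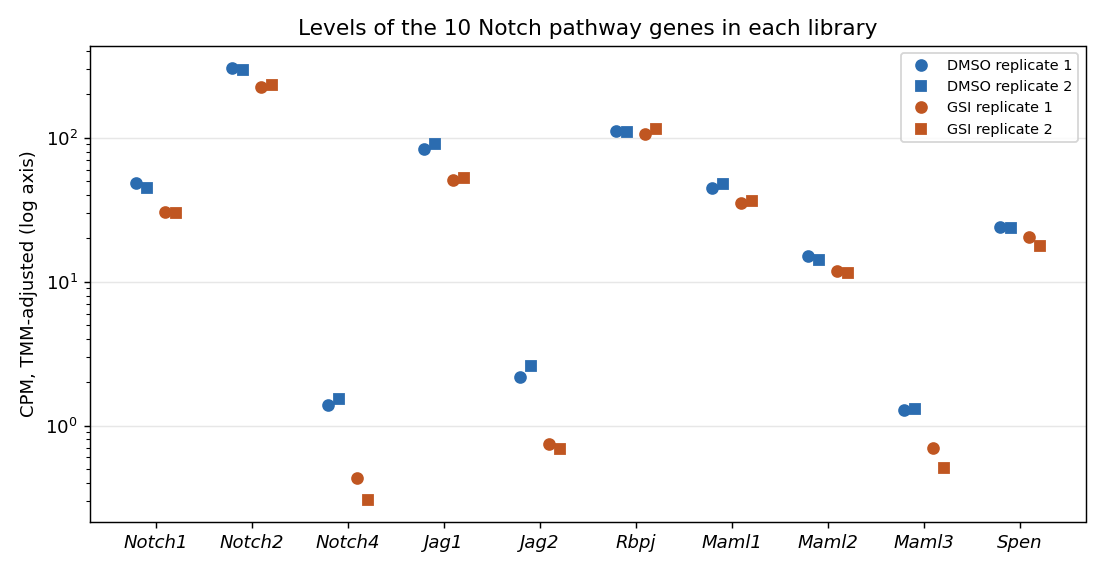
CPM of each of the 10 genes (log axis, TMM-adjusted library sizes) in the 2 DMSO and 2 GSI libraries, 1 point per library. Both GSI points lie below both DMSO points for every gene but *Rbpj*, and *Notch4*, *Jag2* and *Maml3* lie far below the other genes.

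Of the receptors, *Notch2* gave by far the most reads. *Notch2* (ENSMUSG00000027878, chromosome 3, 98013527 to 98150361 on GRCm38) was measured at 306 and 297 CPM with DMSO, against 225 and 231 CPM with GSI. The groups did not overlap, with an SD of 6.85 CPM (n = 2) for DMSO and 4.29 CPM (n = 2) for GSI. The log2 fold change was -0.41 (SE 0.0691, FDR = 8.67e-05), which left 75.5% of the DMSO level. *Notch1* (ENSMUSG00000026923, chromosome 2, 26457903 to 26516663), the receptor whose cleavage is shown above, stood at 48.7 and 45.0 CPM with DMSO, against 30.3 and 29.9 CPM with GSI. Its log2 fold change was -0.64 (SE 0.0764, FDR = 1.25e-06), leaving 64.3% of the DMSO level.

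*Notch4* (ENSMUSG00000015468, chromosome 17, 34564268 to 34588503), a receptor known mainly from blood vessels, was weakly expressed. It held 60 and 87 counts in the DMSO libraries against 21 and 15 in the GSI libraries, or 1.39 and 1.53 CPM against 0.434 and 0.304 CPM. Even the single runs did not overlap, with 10 to 26 counts per run with DMSO and 2 to 7 with GSI, although runs are not replicates. The log2 fold change of -1.99 (SE 0.279, FDR = 9.07e-06) was the largest of the 10 genes. With so few reads its 95% interval was wide, from -2.57 to -1.41, and its upper end was above -1.5. The fourth receptor, *Notch3*, held 1 count in each DMSO library and 0 in both GSI libraries, so it was not detectable above the limit and did not pass the filter on low counts.

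Both Jagged ligands were lower with GSI, at very different levels. *Jag1* (ENSMUSG00000027276, chromosome 2, 137081456 to 137116644) was measured at 83.1 and 89.9 CPM with DMSO, against 51.1 and 52.3 CPM with GSI. The log2 fold change was -0.74 (SE 0.0730, FDR = 8.53e-08), the lowest FDR of the 10 genes, and 59.7% of the DMSO level remained. *Jag2* (ENSMUSG00000002799, chromosome 12, 112907819 to 112929776) held 2.18 and 2.59 CPM with DMSO, against 0.745 and 0.688 CPM with GSI. The GSI libraries fell to 30.01% of the DMSO level, a log2 fold change of -1.74 (SE 0.216, FDR = 1.81e-06). The 95% interval, from -2.19 to -1.29, again included -1.5.

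The study's qPCR primers for *Jag2* are shown because they read only part of what the counts sum up.
*Jag2* forward: tgctgtggaggtggctgtgtct
*Jag2* reverse: tgtttccaccttgacctcggt
The forward primer spans the junction of exons 24 and 25 of the 26 exons of transcript *Jag2*-201, between positions 112909707 and 112910462 of chromosome 12. The reverse primer lies in exon 25 (112909578 to 112909598), and both are in the coding sequence. Of the 10 annotated *Jag2* transcripts, 1 holds both primers.

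The Delta-like ligands were barely detected in any library. *Dll4* held 6 and 11 counts in the DMSO libraries, against 3 and 10 in the GSI libraries, so its groups overlapped. *Dll1* held 2 counts in each DMSO library and 11 and 4 with GSI. *Dll3* held 1 count in DMSO replicate 1 and in GSI replicate 1 and 0 in the others. The non-canonical ligand *Dlk2* held 1 count in all 4 libraries together, and *Dlk1* 0. None of these 5 genes passed the filter on low counts. *Jag1* was the only ligand of the pathway with more than 147 counts in any library.

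*Rbpj* (ENSMUSG00000039191, chromosome 5, 53466152 to 53657362), the DNA-binding factor on which the pathway converges, was the exception among the 10 genes. It was measured at 111 and 110 CPM with DMSO, against 106 and 116 CPM with GSI, and the GSI libraries enclosed the DMSO libraries. The log2 fold change was 0.01 (SE 0.0710, FDR = 0.924), with a 95% interval from -0.14 to 0.16. A p above the threshold does not show an equal level, and the interval allows a fall of up to 0.14 on the log2 scale. The annotated pseudogenes *Rbpj-ps1* and *Rbpj-ps3* held 0 counts and 12 to 37 counts, so few reads were assigned to copies of *Rbpj*.

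The MAML co-activators, which hold the intracellular domain on RBPJ and recruit acetyltransferases, were all lower. *Maml1* (ENSMUSG00000050567, chromosome 11, 50255634 to 50292311) stood at 44.9 and 47.8 CPM with DMSO, against 35.3 and 36.1 CPM with GSI, a log2 fold change of -0.38 (SE 0.0747, FDR = 0.00041). *Maml2* (ENSMUSG00000031925, chromosome 9, 13297957 to 13709388) stood at 14.97 and 14.05 CPM with DMSO, against 11.9 and 11.4 CPM with GSI. Its log2 fold change of -0.31 (SE 0.0932, FDR = 0.0107) was among the smallest changes called. Without DMSO replicate 1 it was -0.27 and no longer passed the test (FDR = 0.0865). With 1 library left in a group, the spread comes from the other group alone, and the lone library is assumed to vary like it. *Maml3* (ENSMUSG00000061143, chromosome 3, 51685907 to 52105076) was weakly expressed, with 55 and 74 counts against 34 and 25 counts, or 1.278 and 1.304 CPM against 0.703 and 0.506 CPM. Its log2 fold change was -1.09 (SE 0.259, FDR = 0.00202), with a wide 95% interval from -1.63 to -0.55.

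*Spen* (ENSMUSG00000040761, chromosome 4, 141467890 to 141538597), the co-repressor, was lower as well. It was measured at 23.9 and 23.4 CPM with DMSO, against 20.5 and 17.6 CPM with GSI. The DMSO libraries lay close together and the GSI libraries were further apart, with an SD of 2.05 CPM (n = 2) against 0.364 CPM (n = 2). The log2 fold change was -0.32 (SE 0.0890, FDR = 0.00732), and without GSI replicate 2 it was -0.21 and did not pass the test (FDR = 0.110), again with 1 library in a group.

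**Figure D2:**
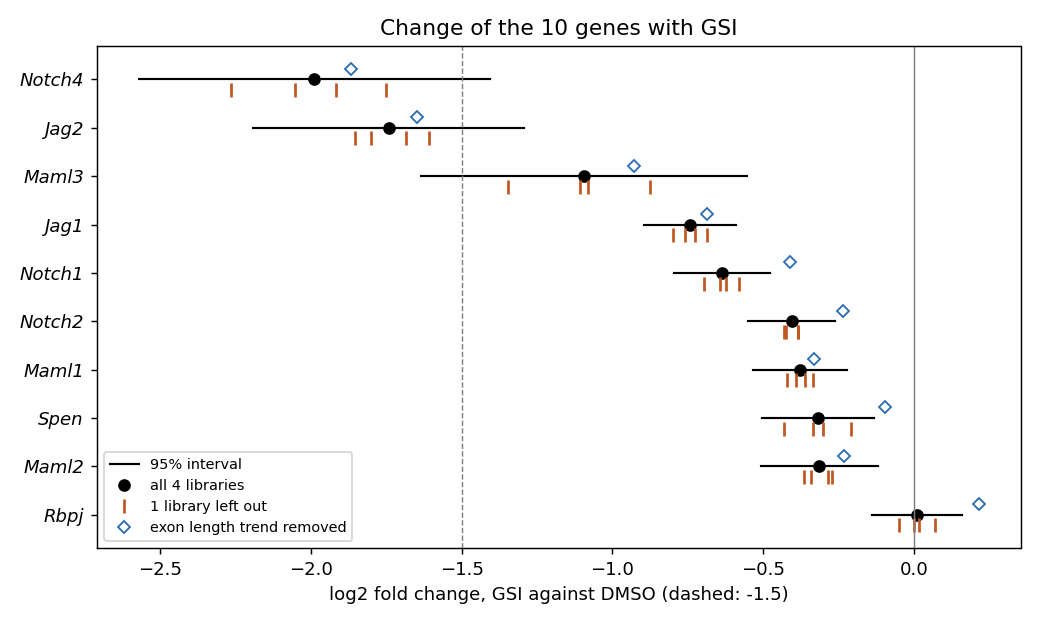
Log2 fold change of the 10 genes, GSI against DMSO, with the 95% interval of edgeR's fit (lines), the values after 1 library was left out (ticks) and the value after the trend over exon length was removed (diamonds). *Notch4* and *Jag2* lie left of -1.5 in every fit, and *Rbpj* lies at 0.01.

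The 10 genes are long, and the changes of all genes varied with exon length. The merged exons of the 10 genes span 5528 (*Maml1*) to 14232 (*Notch1*) bases. Of the 4066 tested genes with exons in this range, 32.3% were called lower and 11.6% higher, with a median log2 fold change of -0.10. Of the 8745 shorter genes, 15.8% were called lower and 23.0% higher, with a median of 0.08. When the trend of log2 fold change over exon length was removed, a setting chosen after seeing the data and given without a test, *Notch4*, *Jag2*, *Maml3* and *Jag1* were at -1.87, -1.65, -0.93 and -0.69. *Notch1* moved to -0.41, *Maml1* to -0.33, *Notch2* and *Maml2* to -0.24 and -0.23, and *Spen* to -0.09. *Rbpj* moved to 0.21, but its merged exons are 2.32 times as long as its longest transcript.

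Exons of other genes hardly touch the 10 genes. For 7 of them no annotated exon lies on the other strand. *Notch1* shares 414 bases with *Gm13568* and 1068 bases with *0610009E02Rik* on the other strand, which held at most 2 and 26 counts. *Maml1* shares 135 bases with *Gm26542*, which held at most 7 counts. *Spen* shares 41 bases with *Zbtb17*, named here after its values were seen, which held 1542 to 2430 counts. On the same strand, *Notch2* shares 541 bases with *Gm42820*, which held 7 to 18 counts, and *Maml2* shares 101 bases with *Gm22643*, which held 0.

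To compare levels between genes, CPM were divided by the length of the merged exons in kb. On this scale *Notch2* was highest in every library, with 28.4 and 27.5 CPM per kb with DMSO, against 20.8 and 21.4 with GSI. *Jag1* followed at 14.3 and 15.4 with DMSO, against 8.77 and 8.97 with GSI. *Rbpj* (8.35 to 9.06 in the 4 libraries) and *Maml1* (6.39 to 8.65) came next. Neighbours in the order *Jag1*, *Rbpj* and *Maml1* overlapped in range. In GSI replicate 2 *Jag1* (8.97) was just below *Rbpj* (9.06), and in DMSO replicate 2 *Rbpj* (8.60) was just below *Maml1* (8.65). *Notch1* (2.10 to 3.42) and *Maml2* (1.73 to 2.27) overlapped in range, but *Notch1* was the higher of the 2 in all 4 libraries. *Spen* (1.25 to 1.70) was below *Maml2* in every library. *Jag2* (0.0989 to 0.372), *Notch4* (0.0377 to 0.190) and *Maml3* (0.0483 to 0.124) were at the bottom, and the last 2 changed places between the groups.

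Per length of the longest transcript, which for *Rbpj* is 5485 bases instead of 12750, *Rbpj* rose above *Jag1* to 19.4 to 21.1 CPM per kb. It then lay next to *Notch2*, which was still higher in all 4 libraries. *Jag1* followed on this scale, at 9.10 to 16.03, and the other 7 genes kept their places.

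**Figure D3:**
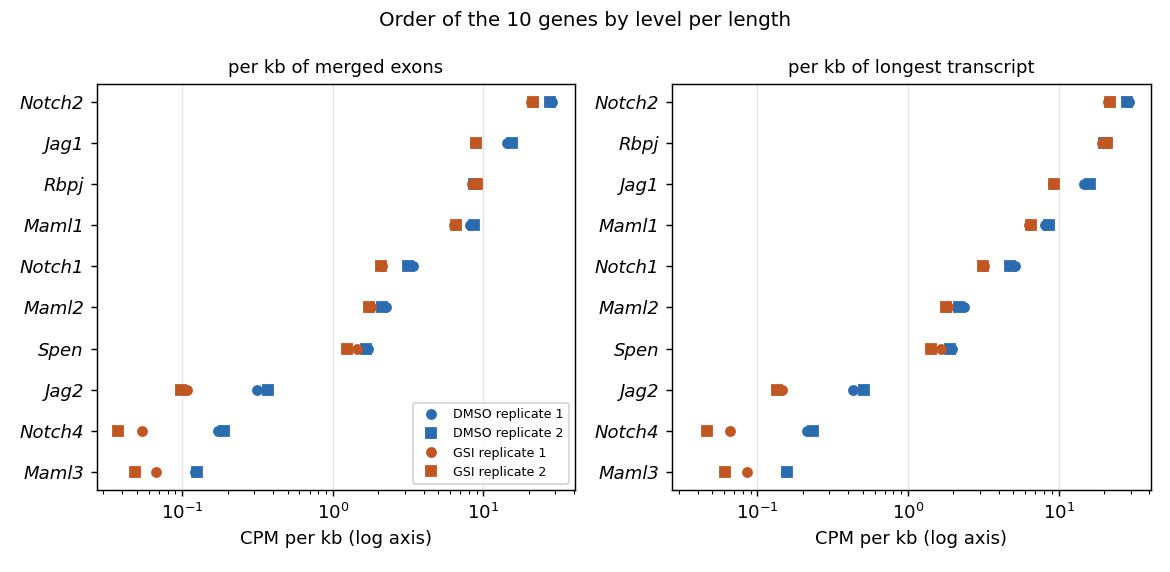
Level of the 10 genes in CPM per kb (log axis), ordered from high to low, per kb of merged exons (left) and of the longest transcript (right), with 1 point per library. *Notch2* leads on both scales, while *Rbpj* and *Jag1* change places.

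Within the receptors, *Notch2* made up 88.8% and 89.1% of the summed level per merged exon length with DMSO, against 90.5% and 90.9% with GSI. *Notch1* made up 10.7% and 10.2% with DMSO, against 9.25% and 8.93% with GSI. *Notch4* made up at most 0.616% in any library. *Jag2* was 2.15% and 2.35% of the Jagged level with DMSO, against 1.21% and 1.09% with GSI.

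A ratio of 2 genes within a library does not depend on how libraries are scaled, and 5 such ratios of levels per kb of merged exons were compared. The choice of length shifts a ratio equally in every library and leaves the difference between the groups as it is. The log2 ratio of *Jag2* to *Jag1* was -5.51 and -5.37 in the DMSO libraries, against -6.36 and -6.50 in the GSI libraries, a mean difference of -0.99. The log2 ratio of *Notch4* to *Notch1* was -4.31 and -4.05 in the DMSO libraries, against -5.31 and -5.80 in the GSI libraries, a difference of -1.37. The log2 ratio of *Notch1* to *Notch2* differed by -0.23 and that of *Maml1* to *Maml3* by 0.74, again without overlap between the groups. The last was 0.48 without GSI replicate 2 and 0.99 without GSI replicate 1. The log2 ratio of *Jag1* to *Notch1* was 2.06 and 2.29 with DMSO, against 2.04 and 2.09 with GSI, and its groups overlapped. With 2 libraries against 2 the exact permutation test (2-sided) cannot give a p below 0.333. It gave 0.333 for the first 4 ratios and 0.667 for the last, or 0.417 and 0.667 after Benjamini-Hochberg adjustment, so no ratio could pass a threshold of 0.05.

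The rest of the pathway was read from lists of genes by role. Of 69 genes, 52 were tested, 16 were lower, 3 were higher and 33 did not pass the test, with a median log2 fold change of -0.07. Of all genes tested, 21.9% were lower and 19.0% higher, and their median was 0.01.

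Of the γ-secretase subunits, the enzyme that DAPT inhibits, all 7 were tested. *Aph1c* rose from 26.8 and 27.3 CPM with DMSO to 35.6 and 37.9 CPM with GSI, a log2 fold change of 0.44 (FDR = 0.000115). *Psen2*, a catalytic subunit, rose from 108 and 127 CPM to 158 and 159 CPM, a log2 fold change of 0.43 (FDR = 0.000146). *Aph1b*, named after its values were seen, fell by 0.35 on the log2 scale (FDR = 0.0287), and *Ncstn*, *Aph1a* and *Psenen* did not pass the test. *Aph1b* and *Aph1c* are close copies, so reads could have been split between them.

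Of the proteases that cut the receptors outside the membrane or mature them, *Adam10*, the main sheddase of ligand-bound Notch, fell from 251 and 232 CPM to 147 and 159 CPM. Its log2 fold change was -0.66 (SE 0.0733, FDR = 4.58e-07), of a similar size to that of *Notch1*. *Adam17* and *Furin* did not pass the test. Of the 5 glycosyltransferases that modify the receptors, *Poglut1* was lower, with a log2 fold change of -0.21 (FDR = 0.0272), and the other 4 did not pass the test.

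Of 11 tested genes of receptor and ligand turnover, *Mib2*, a ubiquitin ligase that acts on ligands, was higher (log2 fold change 0.35, FDR = 0.00154). *Itch*, a ubiquitin ligase that acts on receptors, was lower (-0.31, FDR = 0.003). The other 9 did not pass the test. Of 7 co-activators of the RBPJ complex, the acetyltransferases *Kat2b* (-0.36, FDR = 0.000986) and *Ep300* (-0.31, FDR = 0.00397) were lower and the other 5 were not called.

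Among the co-repressors, 8 of 15 tested genes were lower and 0 were higher, beside 21.9% and 19.0% of all genes tested, with a median log2 fold change of -0.33. Among genes with exons as long as those of the 10 genes, 32.3% were lower, but the co-repressors were not matched to these on exon length. *Ctbp2* fell from 29.9 and 30.7 CPM with DMSO to 20.9 and 20.7 CPM with GSI, a log2 fold change of -0.54 (FDR = 1.44e-05). The histone deacetylases *Hdac1*, *Hdac2* and *Hdac3* of the same list did not pass the test.

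Most classical Notch target genes did not pass the filter on low counts. *Hes1* held 1 to 5 counts in each library, with overlapping groups. *Hey1* held 2 and 1 counts in the DMSO libraries, against 3 and 5 in the GSI libraries, and *Nrarp* held 1 and 2 counts in both groups. *Hes5* and *Heyl* held 0 counts in all 4 libraries. Of the 4 target genes tested, *Myc* fell from 44.6 and 50.02 CPM to 18.2 and 18.4 CPM, a log2 fold change of -1.37 (SE 0.0824, FDR = 1.09e-10). *Ccnd1*, named after its values were seen, fell by 0.55 on the log2 scale, and *Cdkn1a* and *Il2ra* did not pass the test. *Myc* and *Ccnd1* also respond to many other pathways.

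**Figure D4:**
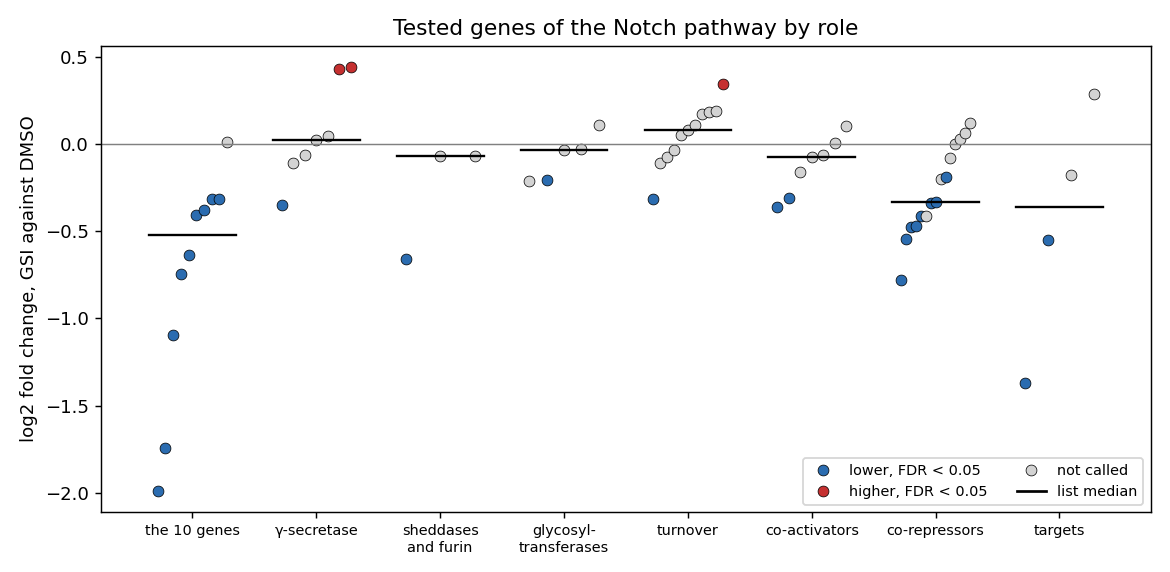
Log2 fold change, GSI against DMSO, of the tested genes of the Notch pathway grouped by role, with 1 point per gene, coloured by its call at an FDR under 0.05, and the median of each list as a line. The 10 genes have a median of -0.52 and the co-repressors of -0.33, while the γ-secretase and turnover lists have medians of 0.02 and 0.08.

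The promoters were read because 9 of the 10 genes were lower and *Rbpj* did not pass the test. RefSeq windows of 300 bases on GRCm38.p6, from 250 bases before to 50 after the start, were found for all 10 genes, 12 windows in all. They were searched on both strands for TGGGAA, the core of the sequence that RBPJ binds. The core occurs in 25.6% of all 32851 such windows, and the longer GTGGGAA, which contains it, in 6.38%. It was found in windows of *Rbpj*, *Maml2*, *Maml3* and *Spen*, and in no window of the receptors, the Jagged ligands or *Maml1*. Each match is shown in 30 bases of the gene's strand, with the core or its reverse complement in capitals.
*Rbpj*, plus strand, chr5:53590185-53590214: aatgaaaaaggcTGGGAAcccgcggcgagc
*Rbpj*, plus strand, chr5:53590269-53590298: gacgctcgcattTTCCCAggacccctcctc
*Maml2*, plus strand, chr9:13662303-13662332: acactcttgcacTTCCCAgggctcgggcag
*Maml3*, minus strand, chr3:52105174-52105203: gcaggtcggggcTTCCCAgcctggggagca
*Spen*, minus strand, chr4:141538588-141538617: cgcgcgcgccggTGGGAAgcgtccggcagc
In *Spen* the core is part of GTGGGAA and starts 8 bases before the transcription start. A match is a description of the letters and not a binding site. How these matches relate to the changes with GSI was not tested, and sites outside the 300 bases were not searched.

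In the 250 bases before the RefSeq start, *Jag2* held 54 CG pairs and 87.2% G or C, the most of the 10 genes. In GENCODE this stretch of *Jag2* is part of the 5′ untranslated region, since that annotation starts the gene further upstream. *Notch4* held 4 CG pairs and 58.4% G or C, so the genes with the largest falls differed widely in base composition there.

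*Notch4* and *Jag2* are also expressed in other cells that a bone marrow culture can hold, so markers of those cells were read. Of the endothelial markers, *Tek* and *Emcn* held 0 counts in all 4 libraries and *Tie1* 1 count in each. *Cdh5* did not pass the test, *Pecam1* was lower (log2 fold change -1.01, FDR = 0.00211) and *Kdr* was higher (1.63). The summed endothelial level was 12.4 and 12.3 CPM with DMSO, against 34.5 and 31.8 CPM with GSI, nearly all of it *Kdr*. The summed stromal level was 1.16 and 1.09 CPM with DMSO, against 0.538 and 0.810 CPM with GSI, with *Col3a1* at 0, at most 1 count of *Col1a1* and *Col1a2* per library, and *Cxcl12* lower (-0.84, FDR = 0.0257). The neutrophil, B cell, mast cell and erythroid lists each summed to at most 0.564 CPM in any library. The dendritic list summed to 186 and 179 CPM with DMSO, against 113 and 115 CPM with GSI, nearly all of it *Clec9a*, which was lower (-0.69), as was *Xcr1* (-0.42, FDR = 0.0175), with *Siglech* and *Cd209a* at 0. The T cell list summed to 1.72 and 1.498 CPM with DMSO, against 3.79 and 2.83 CPM with GSI, mostly *Lck*, which was higher (1.14), and *Cd4*, with *Cd3g* at 0. The megakaryocyte list summed to 20.1 and 22.8 CPM with DMSO, against 25.1 and 30.4 CPM with GSI, nearly all of it *Pf4*, which was higher (0.39, FDR = 0.00289), with *Gp9* at 0. The part of these cells in the changes of *Notch4* and *Jag2* was not tested.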

How the data were processed

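The authors trimmed adapters with Trimmomatic, aligned strand-specific poly(A) reads to the mouse genome (mm10) using STAR, and obtained gene counts from HTSeq. Per the labels' processing notes STAR was version 2.5.0a, and mm9 is listed there beside mm10. The deposited values are raw counts per Ensembl gene and column, without normalization. The HTSeq mode and its strand setting are not given in the sources used here. All 16 columns were matched to samples by title, and the 4 runs of a replicate were summed, since the runs differed by 1.01 to 1.03 chi-square units per degree of freedom and replicates by 14.7 (DMSO) and 16.6 (GSI).

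Genes were tested with edgeR 4.0.16 (R 4.3.3) by the quasi-likelihood test, with filterByExpr, TMM factors and a design of group alone, and p-values were adjusted by Benjamini-Hochberg across every gene tested. The thresholds were an FDR of 0.05 and a log2 fold change of 1.5. The SE was the log2 fold change divided by the square root of F. CPM used TMM-adjusted library sizes. Positions and lengths came from GENCODE M21 on GRCm38, which held 98.9% of the gene IDs, and promoters from RefSeq on GRCm38.p6.

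The 10 genes and the lists were chosen with earlier results of these data known. The genes named were all 10 genes, every other receptor and ligand, *Hes1*, *Hey1*, *Nrarp* and *Myc*, and the 2 largest changes called with at least 1 CPM in each other list. Genes named beyond that rule, such as those not called or at 0, were chosen after their values were seen. Some genes of the lists are not reported here by name. Alternatives were RLE or no factors, DESeq2 1.42.0, the likelihood ratio test, no filter, at least 10 counts in every library, a replicate block, runs as samples, genes without exons on the other strand, and leaving out each library. The fit was tested on simulated data.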

Additional observations from a re-analysis of the deposited data

How the results depend on the processing

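Leaving out 1 library at a time gave 8 to 9 of the 10 genes called lower, 0 higher and 2 past both thresholds, namely *Notch4* and *Jag2*. In these fits 1 group holds a single library, which is assumed to vary like the 2 libraries of the other group. DESeq2 called 9 lower, with *Maml2* and *Maml3* close to the threshold (adjusted p of 0.0499 and 0.0427). When only genes free of exons on the opposite strand were kept, *Notch1*, *Maml1* and *Spen* were not tested and 6 were lower. With the replicate number as a block, 9 were lower. The labels do not say that the numbers pair the samples, and the correlation of deviations was 0.155 over 2 pairs, so the block is given only here. Over all genes it called 3314 lower and 3130 higher, against 2888 and 2504 without it. *Rbpj*, not called, ranged from -0.049 to 0.068 when a library was left out, and was below 0 without GSI replicate 2 (-0.049) and without DMSO replicate 2 (-2.75e-05). The difference in the log2 ratio of *Jag1* to *Notch1* ranged from -0.22 to 0.01, the last without DMSO replicate 2 (0.0085). *Maml2* did not pass the test without DMSO replicate 1, nor *Spen* without GSI replicate 2. In the rest of the pathway, 12 to 18 genes were lower and 3 to 5 higher when a library was left out, the 5 without GSI replicate 2. The 16 runs as samples, which are not independent, gave 25 lower and 9 higher (over all genes 3896 higher), and 10 were lower among the 33 tested genes free of exons on the opposite strand. Genes past both thresholds numbered 385 of all tested, but 556 with no filter, 154 with at least 10 counts in every library, 178 with runs as samples and 179 without opposite-strand exons. Depth limits *Notch4*, *Jag2* and *Maml3*, which held 15 to 147 counts.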

Other observations

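The genes whose level followed that of *Notch1*, *Notch2*, *Jag1*, *Jag2* or *Rbpj* most closely over the 4 libraries were sought among 10949 genes averaging at least 1 CPM. The measure was the distance between centred log2 CPM profiles, which with 4 libraries is a description only. The 3 nearest genes were *Nin*, *Heatr5a* and *Zcchc11* for *Notch1*, *Tbc1d5*, *Ecm1* and *Akap9* for *Notch2*, and *Fam129a*, *Cacna1a* and *Tgm2* for *Jag1*, at distances of 0.0132 to 0.0331. *Notch1* had 87 genes within a distance of 0.1, *Notch2* had 286, *Jag1* had 52 and *Rbpj* had 658. *Jag2* had 0 genes within that distance, and its nearest were *Ska1*, *Rrm2* and *Cx3cr1*, at 0.102, 0.143 and 0.174. The nearest to *Rbpj* were *Tapt1*, *Trove2* and *Ttc27*.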
